A study of Caenorhabditis briggsae with 13 samples.

Results

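The comparison is of whole Caenorhabditis briggsae embryos at 55 cells with embryos at 28 cells, 2 stages of one developmental time course in this nematode. Its members are the 6 arrays whose titles give these stages, 3 at 55 cells and 3 at 28 cells, of 13 arrays in the series. Both groups were unperturbed embryos of strain AF16, collected 80 min (55-cell) and 55 min (28-cell) after the 4-cell stage, so that 25 min separate them. Each array held Cy3-labelled RNA amplified from 50 pooled embryos, and per the labels the replicates A, B and C of a stage were separate biological samples. The other stages of the series, used here for context, were the 4-cell, 95-cell and 190-cell embryo, with 2, 2 and 3 arrays.

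In nematodes such as C. elegans, the first divisions run largely on transcripts that the mother loaded into the egg. Those transcripts are then cleared while the embryo's own genome is switched on, a handover known as the maternal-to-zygotic transition. Gastrulation in C. elegans begins around the earlier of these stages, when the precursors of the gut move inward, and short-lived bursts of regulatory gene expression assign fates to the founder lineages at about the same time. The comparison asks which transcripts became more or less abundant across that step in C. briggsae. Because whole embryos were pooled, more cells of a type and more RNA per cell cannot be told apart.

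Genes are given by their WormBase number. No symbol stands beside a number in the files, and 0 of the 19528 numbers on the array occur in the RefSeq gene table used here, so no position, function or sequence is stated for any gene. Levels are log2 intensity minus the 75th percentile of the same array, so that 0 is the brightness of the probe at that percentile. A gene counted as above background on an array when at least 1 of its probes carried the scanner software's flag for a signal well above background.

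The stage tag of 28-cell B and of 55-cell A reads 4-cell and contradicts the title, and the titles were used. The scanner files of 28-cell C and 190-cell C are identical to the byte, so the intensities of 28-cell C came from the series table and it has no background flags. The lowest intensity on 28-cell C was 0.997. The lowest was 0.833 to 0.893 on the 3 arrays scanned on the later date, 55-cell C among them, and 2.02 to 5.54 on the 9 arrays of the earlier date, which include replicates A and B of both stages. Probes well above background made up 65.2% on 55-cell C and 54.1% to 56.1% on 55-cell A and B, against 51.6% and 54% on 28-cell B and A. Across tested genes, pairs of 55-cell arrays correlated at r = 0.966 to 0.979 and pairs of 28-cell arrays at r = 0.944 to 0.972. A 55-cell array paired with a 28-cell array gave r = 0.867 to 0.916. These are correlations across genes, which are not independent replicates.

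The 6 arrays fell into 2 groups that did not overlap when placed on the line from the 4-cell mean to the 190-cell mean, an axis built without any 28-cell or 55-cell array. The positions were 70.2%, 72.8% and 76.5% of the way for 55-cell A, B and C, against 49.6%, 49.2% and 52.6% for 28-cell A, B and C. The 55-cell arrays averaged 73.2% ± 3.19 and the 28-cell arrays 50.4% ± 1.91 (SD, n = 3 each), a difference of 22.7 percentage points. An exact two-sided permutation test gave p = 0.10, the smallest that 3 arrays against 3 allow. Within each stage replicate C stood furthest along. Without 190-cell C on the axis, the range was 72.0% to 77.4% for the 55-cell arrays and 50.6% to 53.2% for the 28-cell arrays.

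**Figure D1:**
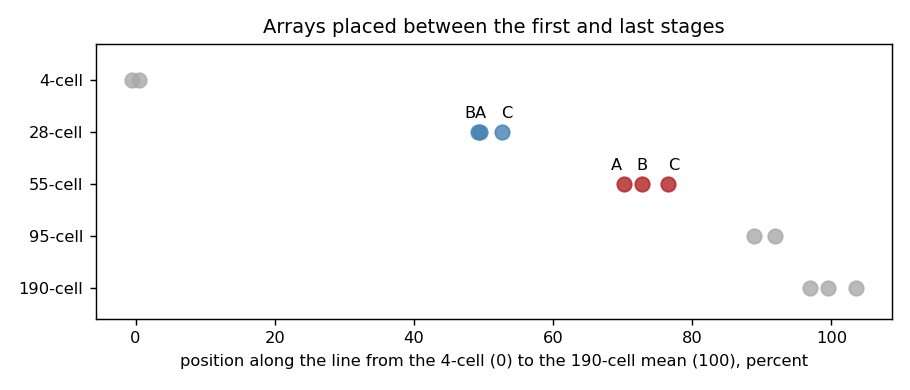
Position of each array (x axis, percent of the way from the 4-cell mean to the 190-cell mean over all tested genes) by stage (y axis), with 1 point per array and replicate letters for the compared stages. The 55-cell arrays sit between 70.2% and 76.5%, all beyond the 28-cell arrays at 49.2% to 52.6%.

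Transcript levels differed between 55-cell and 28-cell embryos for a large share of the measured genes. Of 13443 genes tested, 3724 (27.7%) changed, with 1692 (12.6%) higher and 2032 (15.1%) lower at 55 cells (limma two-sided moderated test over all 13 arrays, Benjamini-Hochberg adjusted p under 0.05). At an unadjusted p under 0.05 the number was 5086. The arrays of both stages did not overlap for 5568 genes (41.4%), with all 55-cell arrays above all 28-cell arrays in 2659 and below them in 2909. Of the called genes 97.7% were without overlap, and 86 had overlapping arrays. The balance of rises and falls rests on the scaling. Scaled on probes detected on all arrays, 2071 genes were higher and 1868 lower, and quantile normalization gave 1931 and 1930. With arrays scaled on spike-in probes, without 28-cell C, 708 genes were called, 417 higher and 291 lower. Within the earlier scan date 3173 genes were called, and without the 4 arrays of the series whose stage tag contradicts the title 2675.

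With bounds included, falls were larger than rises at the median. A called rise was 2.43-fold at the median and a called fall 2.93-fold, where a gene not above background at the dimmer stage was given its lower bound. Of the called rises 301 were above background on no 28-cell array with flags, and 97 called falls on no 55-cell array. The bound therefore reduced rises more often than falls, which bears on the difference between the medians. The middle 50% of called rises lay between log2 changes of 0.95 and 1.85, and that of called falls between -2.14 and -1.13. Over all tested genes the fitted changes had a median of -0.098 with quartiles of -0.60 and 0.49. Rises under 2-fold numbered 501 and falls under 2-fold 340, whereas 210 genes rose and 392 fell by 4 to 8-fold. The falls under 2-fold include 19 genes above background on no flagged array of either stage and 7 above it at 55 cells only. No size of fall could be measured for these genes. Changes of at least 16-fold were as rare among rises (64 genes) as among falls (70 genes). Without bounds, 99 rises and 82 falls of that size were fitted over all tested genes, called or not. Rises of 4-fold or more numbered 362 (2.69% of tested genes) and such falls 595 (4.43%). With normexp background correction, which compresses dim signals and was run without 28-cell C, these counts were 120 rises and 279 falls. With spike-in scaling, also without 28-cell C, they were 337 rises and 264 falls, so the balance was turned round.

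**Figure D2:**
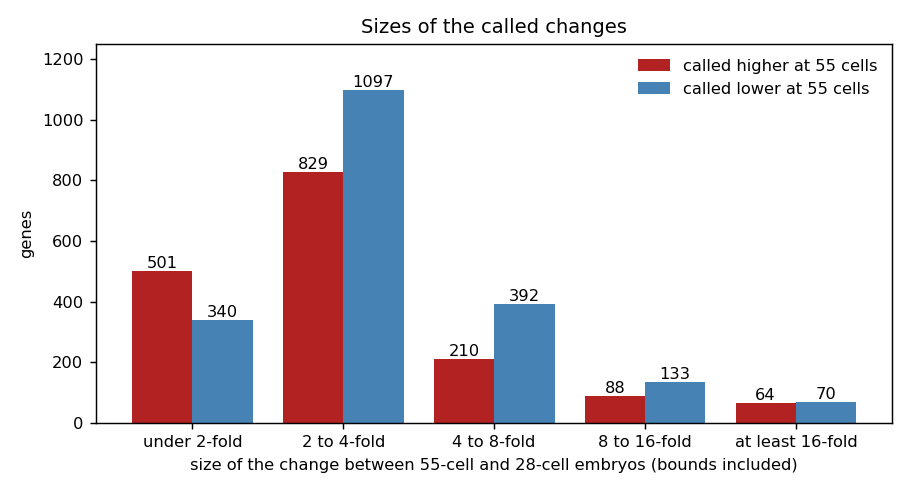
Number of called genes (y axis) by the size of their change between 55-cell and 28-cell embryos (x axis, bounds included), with rises in red and falls in blue. Both peak at 2 to 4-fold, with 829 rises and 1097 falls, and rises outnumber falls in the class under 2-fold only (501 against 340).

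The shares of rises and falls were given by brightness as a description. Genes were divided into 4 classes of equal size by their mean level over all 13 arrays, the compared ones included, so that a change itself moves a gene between classes, and the differences between classes were not tested. In the dimmest class 8.96% of genes rose and 17.1% fell. In the next class 13.7% rose and 15.1% fell, in the one above it 16.9% rose and 15.6% fell, and in the brightest 10.9% rose and 12.8% fell. The median standard error of a log2 change was 0.403 in the dimmest and 0.290 in the brightest class, so bright genes were measured more precisely. The brightest class also had the smallest called changes, with a median size of 1.11 on the log2 scale against 1.65 in the class next to the dimmest. Genes with several kept probes were called in 32.6% of 8794 cases and genes with 1 probe in 18.5% of 4649. The median level was -0.44 for genes with several probes and -3.45 for genes with 1.

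**Figure D3:**
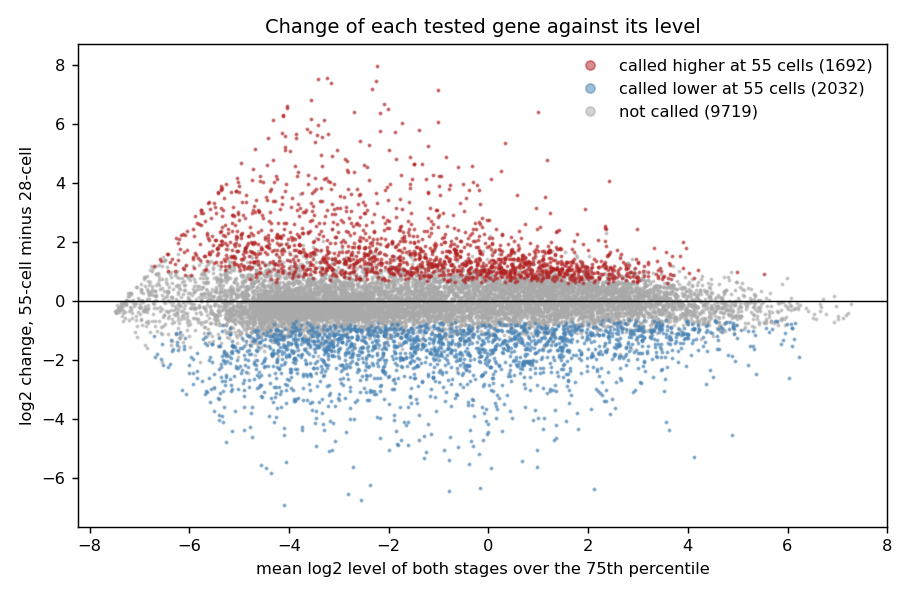
Log2 change of each tested gene, 55-cell minus 28-cell (y axis), against its mean log2 level over both stages (x axis), with 1692 called rises in red, 2032 called falls in blue and 9719 genes not called in grey. The tallest rises, up to 7.97, and the deepest falls, near -6.91, lie among genes of low to middle mean level.

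The largest fitted rises were in 2 genes that were well measured at 55 cells and near background at 28 cells. Genes were ranked by the fitted log2 change and not by the bound. WBGene00032852 stood at 1.43, 1.72 and 2.11 on 55-cell A, B and C, against -6.36, -5.60 and -6.69 on 28-cell A, B and C. The stages did not overlap, and the fitted log2 change was 7.97 (SE 0.363, limma adjusted p = 7.39e-08). All 5 of its probes rose, by 7.04 to 8.92 on the log2 scale. Its D probe, for example, read 1019, 1729 and 1455 intensity units at 55 cells and 2.91, 3.62 and 1.22 at 28 cells. At 28 cells only its B probe was well above background, on 1 of the 2 arrays with flags, so the size of the rise rests on signals close to background. The log2 change was 5.29 with a common floor under all arrays and 4.35 with normexp, without 28-cell C.

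WBGene00032852 stayed high after 55 cells. The 4-cell and 28-cell levels were -4.59 ± 0.51 (SD, n = 2) and -6.22 ± 0.56 (SD, n = 3). They were followed by 1.75 ± 0.34 in 55-cell (n = 3), 2.46 ± 0.23 in 95-cell (n = 2) and 2.01 ± 0.53 in 190-cell embryos (SD, n = 3). The 55-cell, 95-cell and 190-cell levels lay within 1 unit of each other. The 4-cell value was above background on 1 of 2 arrays. In the comparison of 190-cell with 4-cell embryos, whose contrast uses none of these 6 arrays, its log2 change was 6.60 and it was called higher.

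By the fitted change WBGene00024477 rose by almost as much. Its levels were 0.36, 0.36 and 0.93 on 55-cell A, B and C, against -7.0, -6.63 and -7.43 on 28-cell A, B and C, again with no overlap. The fitted log2 change was 7.57 (SE 0.366, limma adjusted p = 1.17e-07). Neither 28-cell array with flags had any of its 4 kept probes well above background, so only a lower bound could be given. It was at least 34.9-fold against each array's own limit, and the bound depends on that limit. Other genes had larger bounds. Among called rises above background on no flagged 28-cell array and on all 55-cell arrays, the largest bound was 66.8-fold. A common floor gave a log2 change of 4.09, and normexp one of 3.44, both smaller than this bound. Its A probe read 739.3, 817 and 927 intensity units at 55 cells and 3.05, 3.72 and 0.997 at 28 cells, the last being the lowest intensity on that array. Unlike the first gene it was below its peak at the end of the series: the level was 0.55 ± 0.33 at 55 cells (SD, n = 3), 0.78 ± 0.054 at 95 cells (n = 2) and -1.54 ± 0.78 at 190 cells (n = 3). The drop from 95 to 190 cells was called (log2 change -2.32).

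The largest fitted falls were in 2 genes that were bright at 28 cells only. WBGene00042819 stood at -6.89, -7.29 and -8.46 on 55-cell A, B and C, against 0.57, -0.15 and -2.35 on 28-cell A, B and C. Its fitted log2 change was -6.91 (SE 0.802, limma adjusted p = 5.17e-05). Its 1 kept probe, B, was well above background on no 55-cell array and on both 28-cell arrays with flags, so only a lower bound could be given. It was at least 27.6-fold against each array's own limit. Among called falls above background on both flagged 28-cell arrays and on no 55-cell array, the largest bound was 58.5-fold. A smaller fall of this gene was fitted with another limit, another background correction or more of its probes. The log2 change was -2.90 with a common floor, -3.22 with normexp and -3.74 with the gene's dim probes included. The 28-cell arrays varied widely, with intensities of 584, 333 and 57.8 on A, B and C, against 3.65, 3.27 and 0.96 at 55 cells. It was above background on no array of the 4-cell, 95-cell or 190-cell stage.

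WBGene00042123 was tight among 28-cell embryos. Its levels were -4.65, -5.81 and -7.30 on 55-cell A, B and C, against 0.92, 0.55 and 0.97 on 28-cell A, B and C. The fitted log2 change was -6.74 (SE 0.836, limma adjusted p = 8.29e-05), with both kept probes falling (-6.36 for A and -7.11 for B). The A probe carried the flag for a signal well above background on 1 of the 3 55-cell arrays. Its intensities were 28.6, 9.80 and 2.44 units on 55-cell A, B and C, against 765, 545 and 520 units on the 28-cell arrays, so the 55-cell arrays spread more widely. The B probe was flagged on 0 of them, and the size of the fall rests on signals close to background, with a log2 change of -4.35 with a common floor and -3.59 with normexp. The gene was above background on no array of the 4-cell, 95-cell or 190-cell stage. No spot of these 4 genes was saturated on any array with flags.

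**Figure D4:**
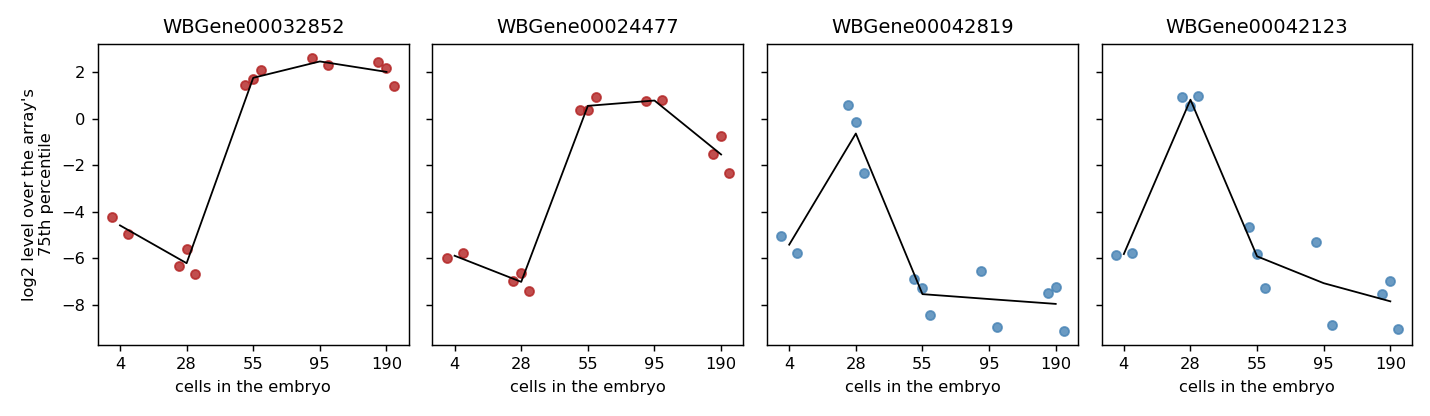
Level of the 4 genes with the largest fitted changes (y axis, log2 over the array's 75th percentile) on every array of each stage (x axis), with lines through the stage means. The 55-cell points of WBGene00032852 and WBGene00024477 lie at 0.36 to 2.11, above their 28-cell points at -7.43 to -5.60, and WBGene00042819 and WBGene00042123 are near or above 0 at 28 cells on 5 of 6 points.

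A smaller set of genes crossed the detection limit between the stages. Among called rises, 243 genes had no probe well above background on either 28-cell array with flags and at least 1 on all 3 55-cell arrays. A bound above 1 existed for 230 of them. Its median was 2.05-fold, and 56 genes had a bound of 4-fold or more. Of the 243 genes, 221 were also above background on neither 4-cell array, and 16 on both. The arrays of later stages entered the choice through the probe filter and through the spread shared in the fit. At 95 cells 189 of the 243 genes (77.8%) were above background on both arrays, against 80.8% of all tested genes. On all 190-cell arrays 195 (80.2%) were, against 90.7% of all tested genes. Their median level was -5.72 at 4 cells, -3.03 at 95 cells and -2.93 at 190 cells. These genes were 1.81% of the tested ones. The share crossing the limit upwards was 0.476% with normexp, 0.521% with a common floor and 1.06% with spike-in scaling.

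In the other direction 66 of the called falls were above background on both 28-cell arrays with flags and on no 55-cell array. The bound on their fall had a median of 3.46-fold, and it was 4-fold or more for 27 genes. Of the 66 genes, 52 (78.8%) were above background on neither 4-cell array, against 26.4% of all tested genes, and 11 on both. At 190 cells 42 (63.6%) were above background on no array, against 2.52% of all tested genes, and 4 (6.06%) on all, against 90.7%. The 66 genes were chosen for lacking a 55-cell signal. Their median level at 28 cells was -3.63, against -1.35 over all tested genes. That choice bears on their detection at the other stages, so all tested genes are not a like baseline. These genes were 0.491% of the tested ones, and 1.04% without 55-cell C, the 55-cell array with the most probes above background.

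The 4-cell arrays, which enter neither compared stage, separate transcripts already present from those not yet measurable. Of the 1692 genes that rose, 971 (57.4%) were above background on both 4-cell arrays and 652 (38.5%) on neither. Over all tested genes these shares were 68.6% and 26.4%, so the share without a measurable 4-cell signal was larger among risers than among all genes, a difference that was not tested. Risers were chosen for a low 28-cell level, with a median of -2.43 against -1.35 over all tested genes. That choice and the probe filter bear on 4-cell detection, so all tested genes are not a like baseline. Of the 2032 genes that fell, 1424 (70.1%) were above background on both 4-cell arrays and 515 (25.3%) on neither, which is close to the shares over all genes. The 4-cell arrays had 39.7% and 40.5% of probes well above background, fewer than any other array with flags.

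Falling transcripts with a 4-cell signal had their lowest medians at 95 and 190 cells. The median level of the 1424 genes at 4, 28, 55, 95 and 190 cells was 1.76, 0.94, -0.94, -1.86 and -1.83. The 4-cell, 28-cell and 55-cell medians were set in part by the choice of genes that were detected at 4 cells and fell. Falling transcripts without a 4-cell signal included 492 genes above background on both 28-cell arrays with flags, a choice that sets their levels at the first 3 stages in part. Over the same stages their median was -5.57, -2.28, -4.34, -5.82 and -5.85. By 190 cells 140 of these 492 genes (28.5%) were above background on no array, against 2.52% of all tested genes, and 191 (38.8%) on all, against 90.7% of all tested genes. The choice of the 492 genes and the probe filter bear on their 190-cell detection too, so all tested genes are not a like baseline.

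Contrasts that use no 28-cell or 55-cell array showed how the changed genes stood at the ends of the series. They share the fit and its estimate of the spread with the main comparison. Of the genes higher at 55 than at 28 cells, 1066 (63.0%) were also called higher at 190 than at 4 cells, where 26.6% of all tested genes were called higher. These 1066 genes made up 29.8% of all genes higher at 190 cells. Of the genes lower at 55 cells, 1355 (66.7%) were called lower at 190 than at 4 cells, where 36.2% of all tested genes were called lower, and they made up 27.9% of that list. Of the 1355 genes, 114 were above background on no 4-cell or 190-cell array. Under scaling to the probes that every array detected, the first share was 76.3% against 47.8% of all tested genes, and the second 42.7% against 16.1%. With spike-in scaling, without 28-cell C, the shares were 87.3% of 417 genes against 26.8%, and 47.1% of 291 genes against 9.58%.

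The comparison of 95-cell with 4-cell embryos gave similar shares. Of the risers 1074 (63.5%) were called higher there, against 23.9% of all tested genes, and of the fallers 1286 (63.3%) were called lower, against 37.3%. These 2 end comparisons share the 4-cell arrays with each other. In the last interval few genes were called. Between 190 and 95 cells 70 of the risers (4.14%) were called higher, against 4.71% of all tested genes, and 77 (4.55%) lower, against 2.66%. Of the fallers 90 (4.43%) were called lower and 5.51% higher. Not called there were 91.3% of the risers and 90.1% of the fallers, against 92.6% of all tested genes.

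Not all changes pointed the way of the whole series. A group of 259 genes (15.3% of the risers) was higher at 55 than at 28 cells but called lower at 190 than at 4 cells, where 36.2% of all tested genes were called lower. Of these, 246 were above background on both 4-cell arrays. Their median level at 4, 28, 55, 95 and 190 cells was 2.70, -0.063, 0.89, 1.15 and 1.14. The choice of these genes sets the 55-cell level above the 28-cell level and the 4-cell level above the 190-cell level, and bears on their detection at 4 cells. The group was 1.93% of tested genes, a share that moved with the processing. It was 1.16% without 55-cell A, 0.870% without 55-cell B, 1.28% without 55-cell C and 1.06% without 28-cell B. It was 0.662% under scaling to the probes that every array detected, and spike-in scaling left 0 such genes.

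The converse group held 253 genes (12.5% of the fallers) that were lower at 55 than at 28 cells but called higher at 190 than at 4 cells, where 26.6% of all tested genes were called higher. Of these, 151 (59.7%) were above background on neither 4-cell array. Their median level at 4, 28, 55, 95 and 190 cells was -4.81, -0.60, -2.28, -2.55 and -1.96, of which the choice of these genes sets 28 cells above 55 cells and 190 cells above 4 cells. It bears on their detection at those stages too. On the 190-cell arrays 250 of the 253 genes were above background throughout. The count was 426 under scaling to the probes that every array detected and 14 with spike-in scaling.

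Genes with no call between the end stages formed the rest. The 367 such risers had medians of -0.74, -2.39, -0.94, -0.66 and -0.78 at 4, 28, 55, 95 and 190 cells. For the 424 such fallers the medians over these stages were -4.24, -1.55, -3.19, -4.62 and -4.40. The quartiles of both groups were wide, from -4.80 to 1.56 for the risers at 4 cells.

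**Figure D5:**
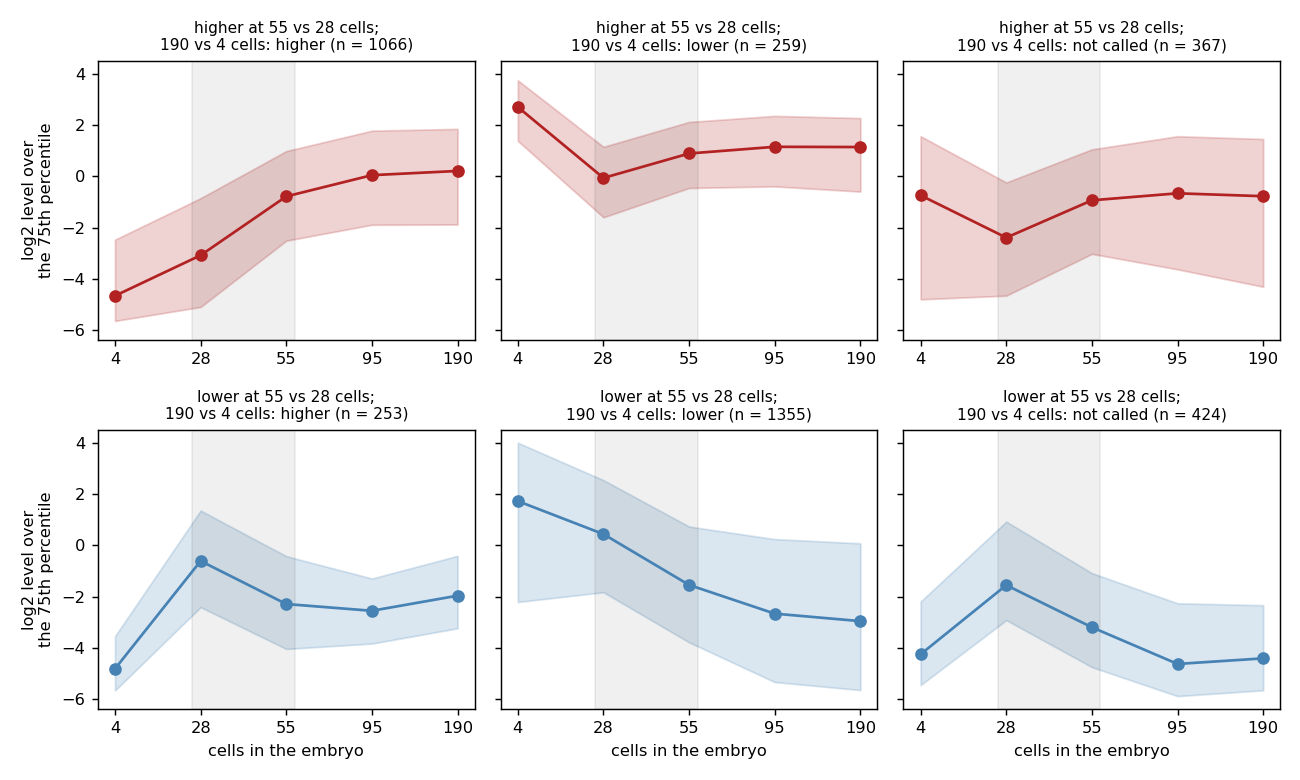
Median level (points and lines) and quartiles (shaded band) of the called genes at each stage (x axis, cells in the embryo; y axis, log2 level over the 75th percentile), with genes higher at 55 cells in the top row and lower ones in the bottom row. Columns give their call at 190 vs 4 cells; the grey band marks the compared stages, where the top-row medians are higher at 55 cells and the bottom-row medians lower.

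The replicates differed little in these group medians. The 1692 risers had a median level of -0.64, -0.50 and -0.39 on 55-cell A, B and C, against -2.48, -2.53 and -2.26 on 28-cell A, B and C. The 2032 fallers had a median of -1.79, -2.01 and -2.24 on 55-cell A, B and C, against -0.043, -0.084 and -0.25 on 28-cell A, B and C. On both lists the arrays of a stage lay closer to each other than to the other stage, as the choice of the lists ensures. The median SD of a gene between replicates was 0.339 at 55 cells and 0.389 at 28 cells, and 0.247 and 0.242 between replicates A and B alone. The first 2 values rest on 3 arrays each and the others on 2, so they are not directly comparable.

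Different probes of a called gene mostly gave the same direction, those of uncalled genes less so. Both an A and a B probe were kept for 8540 genes. Their log2 changes, 55-cell minus 28-cell, correlated at r = 0.879 across genes, with a median difference of 0.194 between the probes. Of 1872 genes called by each probe alone, 1870 had the same direction and 2 opposite directions. Among the 2866 called genes with several kept probes, all probes had the same sign in 98.7%, and among 5928 uncalled genes in 78.0%. A gene was called on the mean of these same probes, so the choice itself favours one sign among called genes. Probes of a gene share the RNA of an array, so they check the probes and not the samples.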

How the data were processed

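RNA of C. briggsae embryos was measured on 1-colour 44k arrays. Per the file headers, spots were quantified with Agilent Feature Extraction 9.5.3.1, and the deposited intensity is the processed signal, background-subtracted and detrended within the array. It is not scaled between arrays, since the 75th percentile ran from 234.8 to 546.6. Series-table intensities were used for all arrays and equal the scanner output on 12 (relative tolerance 1e-06). Detection and saturation flags (0 or 1 per spot) came from those 12 scanner files, per the file headers. Columns belonging to other series numbered 0.

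Of 42034 gene probes, 207 with an outlier flag were left out, and a probe was kept when at least 1 stage had it well above background on all its arrays with flags, which left 24781. Values are log2 intensity minus the array's 75th percentile, averaged over a gene's kept probes. limma 3.58.1 in R 4.3.3 was fitted on all 13 arrays with stage as the factor (two-sided, Benjamini-Hochberg adjusted p under 0.05). Where all arrays of a stage lacked a probe of the gene above background, the fold is a lower bound. It sets the brighter mean against a limit averaged over the dim arrays, each array's limit being its lowest signal above background or the gene's own, whichever was higher. For 28-cell C the higher limit of 28-cell A and B was used. In a simulation with 13443 genes and independent noise, 67, 67 and 66 genes were made to differ 2-fold, 4-fold and 8-fold. The fit called 4.48%, 77.6% and 95.5% of these, and 7 unchanged genes. Far fewer genes differed there than the 27.7% called here. The adjusted p depends on that share, so these rates do not carry over to the real comparison.

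Deviations from the stage means correlated between same-lettered arrays (r = 0.39 for A, 0.18 for B and 0.53 for C, across genes). Arrays of different letters gave r of -0.51 to 0.19, the highest for 55-cell A with 28-cell B, which is above the value for B. These values do not establish a pairing, and the labels give none, so the main fit has stage as its only factor. Replicate letter was used as a block in an alternative fit. Among the 55-cell arrays only C was scanned on the later date, so letter and scan date cannot be told apart for it.

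Named are the 2 largest rises and falls by fitted log2 change, bounds not applied. They were taken from called genes without array overlap, detected on all flagged arrays of the brighter stage and with all kept probes of one sign (1579 rises and 1925 falls met this). Lists by gene symbol were planned and not evaluated, as no identifier was matched. Groups, lists and tests were chosen with earlier results of these data known. The normexp alternative used median spot signals. No array shared a slide with another among the 12.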

Additional observations from a re-analysis of the deposited data

How the results depend on the processing

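The count of changed genes stayed within 1.5 times of 3724 under 13 of 15 alternatives and with each of the 6 arrays left out (2710 to 3566). Spike-in scaling and leaving out both C arrays are choices made after seeing the data. The replicate block gave 4411 genes, of which 3555 were among the 3724, and changed no call of the 4 named genes. With no filter on dim probes 2454 of 19524 genes changed, with 1069 higher, 701 of them also higher at 190 than at 4 cells, 117 higher but lower at 190 cells, 138 lower but higher at 190 cells. Called rises above background at 55 cells but not at 28 cells were 0.886% of tested genes there, against 1.81% with the filter. Called falls lost from detection were 0.205%, against 0.491%. Spike-in scaling, without 28-cell C, gave 708 genes, 417 higher, 291 lower, and 337 rises and 264 falls of at least 4-fold. It gave 364 genes higher in both comparisons, 137 lower in both, 0 higher then lower, 14 lower then higher, 1.06% and 0.312% of genes crossing the detection limit up and down, and 299 genes called alike by A and B probes. The median change of all genes was -0.098, with 0.13 under spike-in scaling, 0.014 with scaling on probes detected on all arrays and 0 with a common floor, and -0.20 to -0.013 with 1 array left out (-0.20 without 55-cell A). Scaling on detected probes also gave 798 genes lower in both comparisons, 89 higher then lower and 426 lower then higher, and centring on the median gene 391 higher then lower. Normexp, without 28-cell C, gave 120 rises and 279 falls of at least 4-fold, 666 genes higher in both, 120 lower then higher, and 0.476% and 0.253% crossing the limit. A common floor gave 227 and 395 such rises and falls, 153 lower then higher, and 0.521% and 0.134% crossing. Requiring detection on all flagged arrays at both stages gave 222 rises of at least 4-fold and leave no gene to cross. The A probe alone gave 2.86% crossing upwards. The first scan date gave 146 higher then lower and 1.28% lost from detection. Without the 4 arrays with contradictory tags 1114 genes were higher, 100 higher then lower and 1234 called alike by both probes. Without both C arrays the numbers were 117 higher then lower, 0.974% lost from detection and 1214 called alike. With 1 of the 6 arrays left out, 117 to 229 genes were higher then lower, and 0.476% to 1.04% were lost from detection (1.04% without 55-cell C). The 4 named genes kept their direction and call in every setting that tested them, but their sizes moved: the log2 change ran from 4.35 to 8.44 for WBGene00032852, 3.44 to 8.25 for WBGene00024477, -7.76 to -2.90 for WBGene00042819 and -7.50 to -3.59 for WBGene00042123, nearest 0 with normexp or a common floor. The causes of these shifts were not tested. The number of arrays limits the precision, and genes not above background at 1 of the stages have only a bound on their fold.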

Other observations

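Of the called rises, 10 genes were above background on all 3 55-cell arrays and on no 4-cell or 190-cell array. Their median level at 4, 28, 55, 95 and 190 cells was -5.75, -6.25, -3.40, -5.07 and -7.04, and 4 of them were above background on both 95-cell arrays. A group of 140 falling genes was above background on both 28-cell arrays with flags and on no 4-cell or 190-cell array. Their median level was -2.71 at 28 cells, -5.36 at 55 cells and -6.91 at 95 cells, where 102 of them (72.9%) were above background on no array, against 2.84% of all tested genes. Their fall and their lack of a 4-cell or 190-cell signal were part of the choice. That choice bears on their 95-cell detection, so all tested genes are not a like baseline. The 9719 genes with no call between 55 and 28 cells had medians of -1.69, -1.42, -1.43, -1.64 and -1.49 over the 5 stages in order.

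Of the tested genes, 9221 were above background on both 4-cell arrays, 11780 on both 28-cell arrays with flags, 11985 on all 3 55-cell arrays, 10861 on both 95-cell arrays and 12191 on all 190-cell arrays.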
